A study of Rattus norvegicus with 9 samples.

Results

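The 10 genes followed here in rat hippocampus were grouped as antioxidant genes of the transcription factor NRF2: Hmox1, Nqo1, Gclm, Gclc, Gpx1, Txnrd1, Srxn1, Slc7a11, Sod2 and Prdx6. Whether NRF2 acts on each of them in this tissue was not tested. They were chosen by symbol, by a rule that uses no measured value but with earlier results of these data known, and are 10 of the 18733 genes in the deposited tables. The libraries came from male rats in 3 groups of 3, whose strain and age are not given in the labels. The taVNS group had middle cerebral artery occlusion (MCAO, a surgical model of ischaemic stroke), became cognitively impaired and then had 14 days of transcutaneous auricular vagus nerve stimulation, in which electrodes on the ear stimulate a branch of the vagus nerve. The PSCI group (post-stroke cognitive impairment) had the same surgery and impairment and was fed normally for 2 weeks without stimulation. The control group was fed normally. Both stroke groups were admitted by the same behavioural limit, 20% of the control mean, and then divided at random. The labels give no sham surgery for the control group, no sham stimulation for the PSCI group and no hemisphere. The extraction text speaks of mice, whereas every label gives rat.

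NRF2, encoded by Nfe2l2, is a transcription factor that the adaptor KEAP1 holds for degradation through a CUL3 ubiquitin ligase. Oxidants and electrophiles modify KEAP1, NRF2 accumulates, pairs with a small MAF protein and binds antioxidant response elements, while BACH1 represses several of the same genes, Hmox1 above all. In brain this programme is best known in astrocytes and microglia, and haem oxygenase 1 is also a gene of macrophages that take up haem.

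The promoters of the members were searched for the core of the antioxidant response element, since that is the sequence through which NRF2 acts. RefSeq promoters of the assembly GRCr8, from 250 bases before to 50 bases after a gene start, were matched for 8 of the 10 members, not for Hmox1 and Prdx6, and Txnrd1 has 2 such windows. The core TGACNNNGC was searched on both strands and was found in 3 of 9 member windows (33.3%) and in 25.3% of 91 windows of other NRF2 pathway genes. It was in 13.9% of 13865 windows of the genes tested below for RNA changes and in 12.1% of all 33469 listed windows. The 3 matches, each on the opposite strand to the gene, are shown in capitals with 15 bases on either side, since they are the members' only matches in these windows. They lie at chr2:213031948-213031986 (plus strand) for Gclm, at chr7:22755959-22755997 (minus strand) for Txnrd1 and at chr1:50050180-50050218 (minus strand) for Sod2, and the matches start at -172, -78 and -35 from the gene start.
Gclm: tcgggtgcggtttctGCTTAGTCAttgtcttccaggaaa
Txnrd1: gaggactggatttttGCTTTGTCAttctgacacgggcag
Sod2: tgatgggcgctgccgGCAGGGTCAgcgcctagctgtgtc
Srxn1 has no TGACNNNGC match in its window, but a second search, added after the sequences had been seen, found the related palindrome TGANTCA there at -62 and -5 (chr3:161064735-161064771 and chr3:161064792-161064828, plus strand). That shorter motif was in 1 of 9 member windows (11.1%) and in 11% of the windows of other NRF2 pathway genes. It was in 4.95% of the windows of tested genes and in 7.33% of all listed windows, and it can overlap the longer one.
Srxn1 at -62: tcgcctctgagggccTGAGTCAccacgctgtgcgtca
Srxn1 at -5: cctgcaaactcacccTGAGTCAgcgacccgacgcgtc
The windows of Nqo1 (chr19:52220218-52220517, minus strand) and Gpx1 (chr8:117905212-117905511, plus strand) hold neither motif, and they are given whole because these are the matched members whose RNA changed. No match says only that these letters are not in these 300 bases.
Nqo1: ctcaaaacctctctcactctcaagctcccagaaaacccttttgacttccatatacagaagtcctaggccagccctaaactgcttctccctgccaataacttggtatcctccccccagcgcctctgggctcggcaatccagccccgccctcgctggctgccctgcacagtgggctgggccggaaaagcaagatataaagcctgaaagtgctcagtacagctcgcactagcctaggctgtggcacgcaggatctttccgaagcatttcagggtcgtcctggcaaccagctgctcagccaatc
Gpx1: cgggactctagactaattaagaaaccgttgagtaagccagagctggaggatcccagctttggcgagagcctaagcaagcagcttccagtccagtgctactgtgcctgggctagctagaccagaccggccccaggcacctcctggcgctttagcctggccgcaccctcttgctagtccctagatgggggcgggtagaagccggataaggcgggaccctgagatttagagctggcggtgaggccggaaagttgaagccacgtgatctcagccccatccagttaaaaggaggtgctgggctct

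The libraries held 13747390 to 15415692 counts, and 3 counts, the most that a count of 0 allows, correspond to between 0.195 and 0.218 CPM, a unit of counts relative to the scaled library total. Floors and intervals of this kind cover counting error only. Neuronal markers were abundant in every library, with Slc17a7 at 1212 to 2082 CPM and the hippocampal gene Neurod6 at 46.6 to 225 CPM, both lowest in PSCI replicate 2. PSCI replicate 2 and taVNS replicate 3 stood apart in markers of meninges and fibroblasts, with summed levels of 373 CPM in taVNS replicate 3 and 236 CPM in PSCI replicate 2, against 51.8 to 91.2 CPM in the other 7 libraries. Results are therefore also given without both of them where that ends a call. The extraction text speaks of tissue from each animal, but no label ties a library to a rat, and the p-values measure only the spread between these libraries.

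All 10 members passed the filter on low counts. In PSCI, 3 of the 10 rose against control (Hmox1, Nqo1 and Gpx1), none fell, and 7 did not pass the test, which was the quasi-likelihood F test of edgeR with Benjamini-Hochberg adjustment over 14840 genes and a threshold of 0.05. Over all genes tested, 7.71% rose and 2.14% fell in this comparison (9.85% in either direction). In taVNS against PSCI the members that fell were Hmox1, Nqo1 and Gpx1 again, none rose, and 7 did not pass, beside 4.91% of all genes that fell and 0.842% that rose (5.75% in either direction). These comparisons share the PSCI libraries, so their values are given side by side and are not independent of each other. The median log2 fold change of the 10 members was 0.12 in PSCI against control and -0.17 in taVNS against PSCI, where the medians over all genes were within 0.002 of 0. In PSCI against control 3 of the 10 had libraries that did not overlap, all higher in PSCI, beside 27.4% of all genes in either direction and 16.2% higher. The list did not move as a block: the changes sat in 3 members, and the other 7 differed between PSCI and control by no more than the -0.24 (log2) of Sod2.

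**Figure D1:**
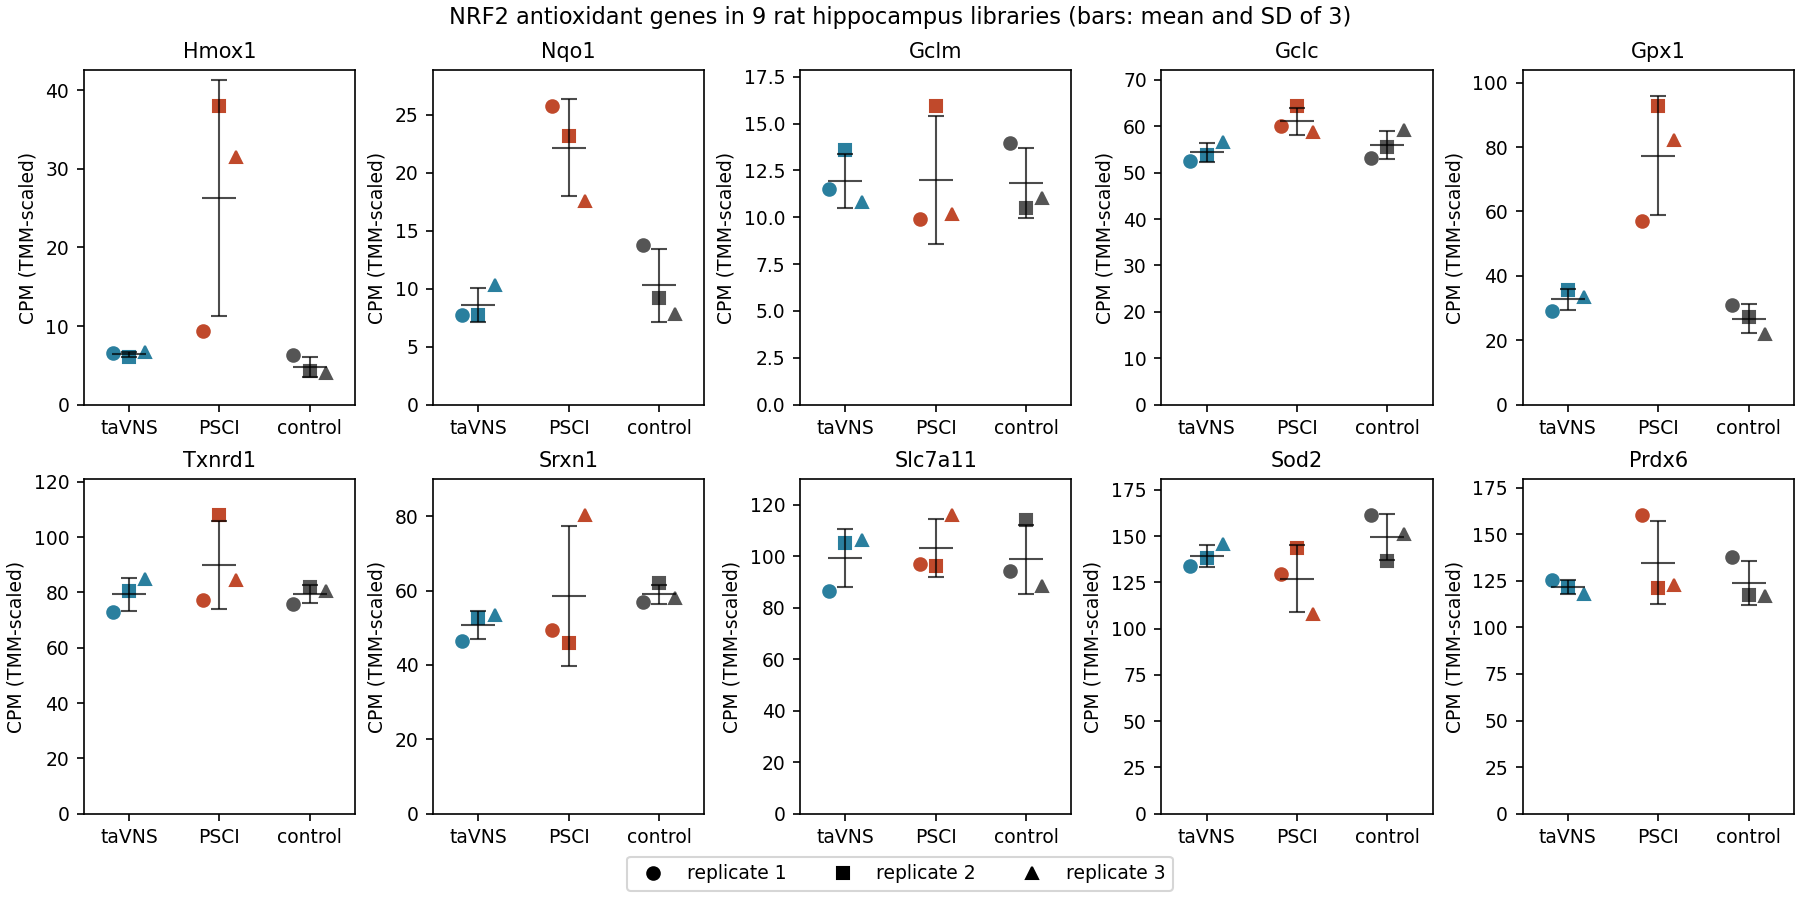
Level of each member in CPM after TMM scaling (vertical axis, from 0) in the taVNS, PSCI and control libraries. Each marker is 1 library, its shape gives the replicate number, and bars are the mean and SD of 3 libraries. Hmox1, Nqo1 and Gpx1 are higher in all 3 PSCI libraries than in any other library, while the groups of the other members largely overlap.

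Hmox1 encodes haem oxygenase 1, the inducible enzyme that breaks haem down into biliverdin, iron and carbon monoxide. Its level was 6.52, 6.09 and 6.69 CPM in the taVNS libraries, 9.41, 38.0 and 31.5 CPM in the PSCI libraries and 6.28, 4.25 and 3.97 CPM in the control libraries. All PSCI libraries lay above all others, but PSCI replicate 1 was much closer to the other groups than replicates 2 and 3 were. In PSCI Hmox1 averaged 26.3 ± 14.99 CPM, against 4.83 ± 1.26 CPM in control (SD, n = 3 each), a log2 fold change of 2.44 ± 0.45 (SE; edgeR adjusted p = 0.0112) and 5.43-fold. In taVNS it averaged 6.43 ± 0.314 CPM, and against PSCI it fell by 2.03 ± 0.437 on the log2 scale (edgeR adjusted p = 0.0312). In these bulk samples fewer cells of a type and less RNA per cell cannot be told apart. The PSCI rise missed the threshold with limma-voom (adjusted p = 0.069) and without control replicate 2 (edgeR adjusted p = 0.0545) or control replicate 3 (0.057). The taVNS fall missed it under 13 of 19 alternatives. Over all 19 the adjusted p of the test used in each ran from 0.000124 to 0.125. Among the 13 were the replicate block (edgeR adjusted p = 0.0815) and leaving out any one taVNS library. Leaving out PSCI replicate 2 or 3, control replicate 2, or both libraries rich in meningeal markers (edgeR adjusted p = 0.124) also ended the call. The log2 value stayed between -1.66 and -2.43 when 1 library was left out.

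Nqo1 encodes NAD(P)H quinone dehydrogenase 1, which reduces quinones by 2 electrons at once and is the textbook readout of NRF2. Nqo1 stood at 7.71, 7.76 and 10.3 CPM in taVNS, at 25.8, 23.2 and 17.6 CPM in PSCI and at 13.8, 9.21 and 7.86 CPM in control. The PSCI libraries did not overlap with either other group, and PSCI replicate 1, the lowest for Hmox1, was the highest for Nqo1. Nqo1 averaged 22.2 ± 4.2 CPM in PSCI and 10.3 ± 3.12 CPM in control (SD, n = 3 each), a log2 fold change of 1.11 ± 0.237 (SE; edgeR adjusted p = 0.0207). The taVNS mean was 8.6 ± 1.49 CPM, and Nqo1 fell by 1.37 ± 0.239 (log2) against PSCI (edgeR adjusted p = 0.0150). The first call was lost without control replicate 2 (adjusted p = 0.0809) or 3 (0.0899), and the second without taVNS replicate 1 (0.0853) or 2 (0.068), all by edgeR.

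The glutathione genes were divided. Gpx1, the cytosolic glutathione peroxidase that turns hydrogen peroxide into water, was at 29.1, 35.5 and 33.5 CPM in taVNS, 56.9, 92.7 and 82.2 CPM in PSCI and 30.8, 27.2 and 22.0 CPM in control. Every PSCI library was above every other library, and taVNS and control overlapped. Gpx1 averaged 77.3 ± 18.4 CPM in PSCI and 26.7 ± 4.47 CPM in control, 2.90-fold, or 1.53 ± 0.193 on the log2 scale (SE; edgeR adjusted p = 0.00275). In taVNS its mean was 32.7 ± 3.24 CPM, and it fell by 1.24 ± 0.191 (log2) against PSCI (edgeR adjusted p = 0.00916). Its PSCI rise passed the threshold under all 19 alternatives, and its taVNS fall under all but the one without taVNS replicate 1 (edgeR adjusted p = 0.0541).

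The genes that supply glutathione did not pass the test in either comparison. Gclc, the catalytic subunit of glutamate-cysteine ligase, which makes the first step of glutathione synthesis, had 52.5, 53.9 and 56.7 CPM in taVNS, 60.0, 64.4 and 58.9 CPM in PSCI and 53.1, 55.5 and 59.3 CPM in control. The taVNS and PSCI libraries did not overlap, by a log2 difference of -0.17 with a 95% interval from -0.35 to 0.02 (edgeR adjusted p = 0.273). It was 1 of 4 members whose taVNS libraries all lay under the PSCI libraries, beside 15.2% of all genes lower without overlap, 10.6% higher and 25.9% in either direction. Gclm, the modifier subunit that raises the activity of that enzyme, had 11.5, 13.6 and 10.8 CPM in taVNS, 9.88, 15.9 and 10.2 CPM in PSCI and 13.9, 10.5 and 11.0 CPM in control. PSCI replicate 2 alone was high and the groups overlapped. The PSCI to control log2 difference of Gclm was 0.02, with an interval from -0.46 to 0.50. Slc7a11, the cystine importer of the glutathione pathway, had 86.4, 105 and 106 CPM in taVNS, 97.1, 96.4 and 116 CPM in PSCI and 94.3, 114 and 88.4 CPM in control, with overlapping groups and a PSCI to control difference of 0.06 (interval -0.23 to 0.35).

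The thioredoxin and peroxiredoxin members did not pass either. Txnrd1, the cytosolic thioredoxin reductase, had 72.9, 80.5 and 84.7 CPM in taVNS, 77.4, 108 and 84.3 CPM in PSCI and 75.6, 81.9 and 80.7 CPM in control. Srxn1, sulfiredoxin, which restores over-oxidised peroxiredoxins, had 46.5, 52.5 and 53.4 CPM in taVNS, 49.3, 45.9 and 80.3 CPM in PSCI and 56.9, 61.9 and 58.0 CPM in control. One PSCI library decided the Srxn1 mean of that group: replicate 3 was at 80.3 CPM while the other 2 were under every control library. Prdx6, a peroxiredoxin that also reduces oxidised phospholipids, had 125, 122 and 118 CPM in taVNS, 160, 121 and 123 CPM in PSCI and 138, 118 and 117 CPM in control. The PSCI to control log2 differences were 0.18 for Txnrd1, -0.01 for Srxn1 and 0.12 for Prdx6, with edgeR adjusted p of 0.416, 0.981 and 0.595. Their 95% intervals ran from -0.10 to 0.46, from -0.44 to 0.42 and from -0.15 to 0.40, so a change of the size seen in Nqo1 lay outside each of them.

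Sod2, the manganese superoxide dismutase of mitochondria, was the member with the lowest PSCI to control difference. It had 134, 138 and 146 CPM in taVNS, 130, 144 and 108 CPM in PSCI and 161, 137 and 151 CPM in control. PSCI replicate 3 was the lowest library and the groups overlapped. The log2 difference was -0.24, with a 95% interval from -0.50 to 0.02 (edgeR adjusted p = 0.240). In taVNS against PSCI the 6 members that neither passed nor separated, Sod2 among them, differed by -0.20 (Srxn1) to 0.13 (Sod2) on the log2 scale, with edgeR adjusted p from 0.450 to 0.990.

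**Figure D2:**
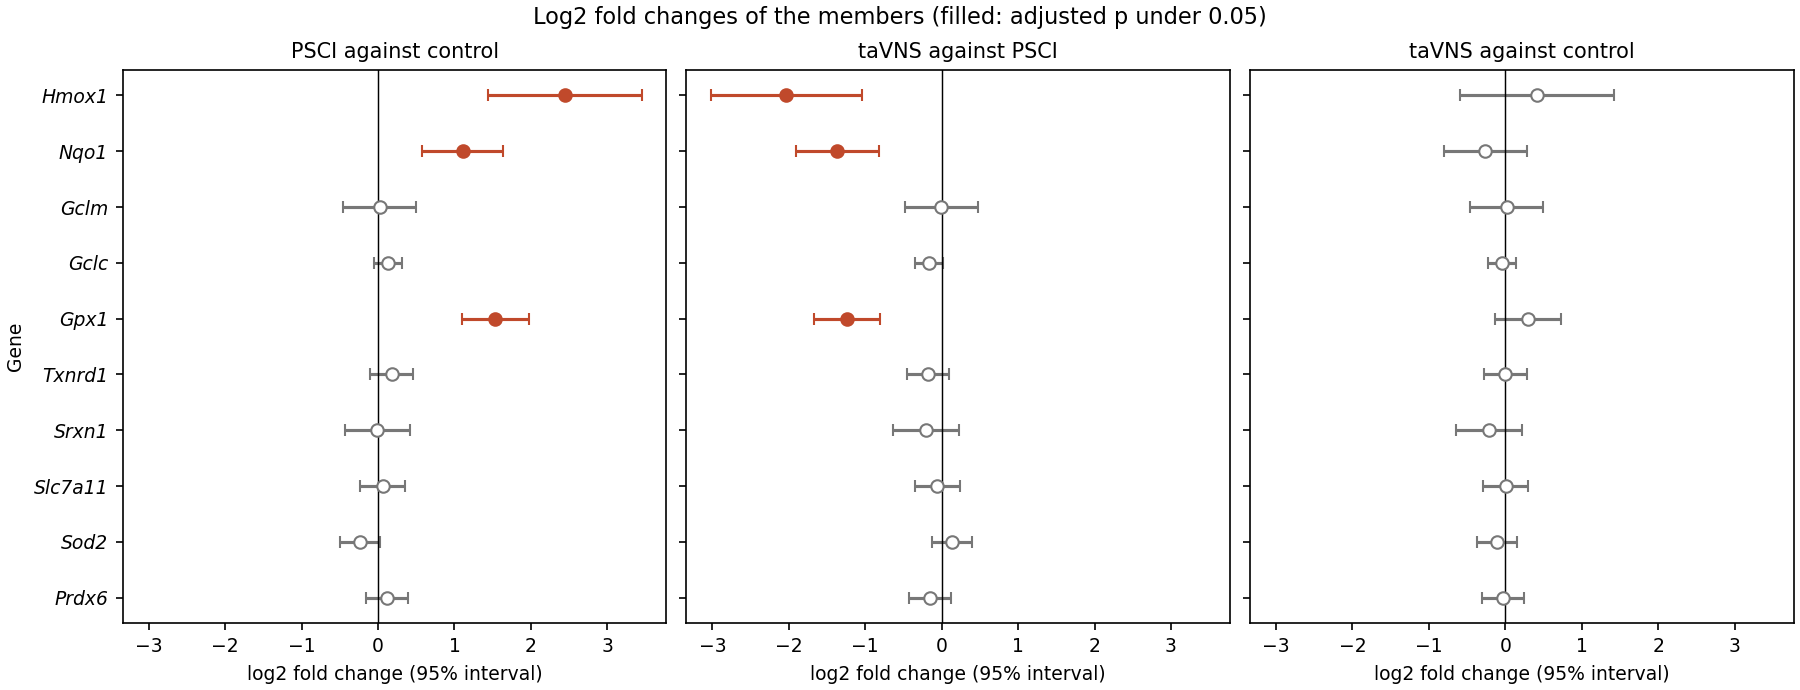
Log2 fold change of each member (points) with its 95% interval (bars) in PSCI against control, taVNS against PSCI and taVNS against control, from edgeR. Filled points passed the adjusted threshold: Hmox1, Nqo1 and Gpx1 at 2.44, 1.11 and 1.53 in PSCI against control and at -2.03, -1.37 and -1.24 in taVNS against PSCI. No point is filled in taVNS against control.

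In taVNS against control 0 of 10 members and 0 of 14840 genes passed (0% called by edgeR). At an unadjusted p under 0.05 the counts were 0 members and 557 genes (3.75%), and DESeq2 called 10 genes, none of them a member. The log2 difference was 0.41 for Hmox1 (95% interval -0.60 to 1.42), -0.26 for Nqo1 (-0.80 to 0.28) and 0.29 for Gpx1 (-0.14 to 0.73). The interval of Hmox1 holds a change of 1.5-fold in either direction, those of Nqo1 and Srxn1 a fall of this size and that of Gpx1 a rise of this size. Such differences are therefore not excluded by these libraries. Srxn1 was the only member whose groups did not overlap, with taVNS lower by -0.21 (log2; interval -0.64 to 0.21), beside 5.4% of all genes that were lower without overlap, 5.74% that were higher and 11.1% in either direction.

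Per length, the members spanned a wide range. In deposited RPKM (reads scaled for gene length and library size, means of 3), the PSCI order was Prdx6 at 236, Gpx1 at 125, Sod2 at 72.4, Txnrd1 at 28.9, Gclc at 24.8, Srxn1 at 22.8, Hmox1 at 20.4, Nqo1 at 19.1, Slc7a11 at 12.7 and Gclm at 10.1. In control it was Prdx6 at 209, Sod2 at 82.0, Gpx1 at 41.1, Txnrd1 at 24.7, Srxn1 at 22.2, Gclc at 21.6, Slc7a11 at 11.5, Gclm at 9.54, Nqo1 at 8.53 and Hmox1 at 3.55. Hmox1 was thus the lowest member in control and in taVNS (4.61), where it did not overlap with its neighbour Nqo1, and Gpx1 stood above Sod2 in PSCI alone. In taVNS the order was Prdx6 at 208, Sod2 at 78.0, Gpx1 at 51.2, Txnrd1 at 25.1, Gclc at 21.4, Srxn1 at 19.6, Slc7a11 at 11.9, Gclm at 9.83, Nqo1 at 7.29 and Hmox1. In PSCI the libraries of Txnrd1, Gclc, Srxn1, Hmox1 and Nqo1 overlapped from one to the next, as did those of Slc7a11 and Gclm. The neighbours that overlapped in taVNS were Gclc with Srxn1 and Slc7a11 with Gclm, and in control Txnrd1 with Srxn1, Srxn1 with Gclc, Slc7a11 with Gclm and Gclm with Nqo1. The members' log2 ratios from counts and from RPKM differed by at most 0.117.

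The other NRF2 pathway genes were taken from 7 lists with 98 symbols, of which 95 were in the tables and 91 passed the filter. In PSCI 9 of the 91 rose and 3 fell against control (13.2%, beside 9.85% of all genes), and in taVNS 2 rose and 8 fell against PSCI (11.0%, beside 5.75%). In taVNS against control none of the 91 passed by edgeR, and 1 had an unadjusted p under 0.05. The medians of the 91 were 0.06 and -0.05 (log2) in the first 2 comparisons.

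Among 13 regulators 2 rose and 1 fell in PSCI, and 1 rose and 1 fell in taVNS against PSCI. Nfe2l2, the gene of NRF2 itself, had 25.9, 27.5 and 27.3 CPM in taVNS, 31.9, 51.8 and 39.0 CPM in PSCI and 25.9, 26.0 and 22.9 CPM in control. All PSCI libraries were above the others, with a log2 rise of 0.71 ± 0.162 against control (SE; edgeR adjusted p = 0.0257) and a taVNS to PSCI difference of -0.61 that did not pass (0.0635). Keap1 averaged 59.2 CPM in PSCI and 59.7 CPM in control, a log2 difference of -0.01 (adjusted p = 0.947), and Bach1 differed by 0.29 (0.457). Maff, a small MAF protein, was low everywhere at 8, 6 and 5 counts in taVNS, 47, 57 and 42 in PSCI and 10, 9 and 12 in control. Maff rose by 2.11 (log2) in PSCI (edgeR adjusted p = 0.00407) and fell by 2.83 in taVNS against PSCI (0.00247), and on log2(RPKM + 1) by limma, which understates low genes, the values were 1.04 and -1.21. Sqstm1, the autophagy receptor p62 that binds KEAP1, fell by 2.47 in PSCI by counts (edgeR adjusted p = 0.000167) but by 0.74 on log2(RPKM + 0.1) (limma adjusted p = 0.00279). In taVNS against PSCI Sqstm1 rose by 2.39 by counts and by 0.69 by RPKM, so the size of its change is not settled by the deposited values.

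In the glutathione list, 2 of 26 tested genes rose and 2 fell in PSCI, and 2 fell in taVNS against PSCI. Mgst1, a membrane-bound glutathione transferase, had 3.36, 3.92 and 4.44 CPM in taVNS, 13.0, 13.0 and 14.8 CPM in PSCI and 4.07, 2.69 and 4.04 CPM in control. Mgst1 thus rose by 1.91 ± 0.203 (log2; edgeR adjusted p = 0.00136) in PSCI and fell by 1.79 ± 0.201 (0.00267) in taVNS, with little spread inside any group. Slc3a2, the partner chain of Slc7a11 and other amino acid transporters, rose by 0.45 (0.0189) and fell by 0.48 (0.0207). Gstm7 and Mgst3 fell by 0.85 (0.0292) and 0.43 (0.0369) in PSCI. Gstm genes are close copies of one another, and how the authors' counting split reads among them is not given, so their values are uncertain.

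In the thioredoxin and peroxiredoxin list 2 of 13 genes rose in PSCI, and 1 rose and 2 fell in taVNS against PSCI. Prdx4, the peroxiredoxin of the endoplasmic reticulum, had 13.0, 13.8 and 12.6 CPM in taVNS, 21.1, 29.8 and 29.2 CPM in PSCI and 15.9, 14.5 and 14.8 CPM in control. Prdx4 rose by 0.82 ± 0.143 (log2; edgeR adjusted p = 0.00896) in PSCI and fell by 1.02 ± 0.144 (0.00628) in taVNS. Prdx1, the abundant cytosolic peroxiredoxin, rose by 0.71 (0.0381) and fell by 0.74 (0.0449), and Txnrd3, a thioredoxin reductase known in mouse for its abundance in testis, rose by 0.69 in taVNS (0.0357).

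In the list of NADPH supply (8 genes), Taldo1, the transaldolase of the pentose phosphate pathway, rose in PSCI by 0.48 (log2; edgeR adjusted p = 0.0345) and fell by 0.49 (0.0465) in taVNS against PSCI. The list's median was 0.46 in PSCI against control and -0.40 in taVNS against PSCI. Of the 19 tested detoxification genes only Ugt1a6, a glucuronosyltransferase, passed, with 1.89, 1.33 and 1.71 CPM in taVNS, 4.98, 8.16 and 6.46 CPM in PSCI and 2.28, 2.34 and 1.10 CPM in control. Its log2 values were 1.77 in PSCI against control (edgeR adjusted p = 0.0114) and -1.99 in taVNS against PSCI (0.0123), or 1.13 and -1.21 on log2(RPKM + 1) by limma, and it shares exons with neighbouring Ugt1a genes. None of the 8 haem and iron genes and none of the 4 superoxide and peroxide genes passed by edgeR. The median of the 8 haem and iron genes was 0.01 in PSCI against control and 0.02 in taVNS against PSCI (log2). Of these, Ftl1, the ferritin light chain, had 241, 219 and 228 CPM in taVNS, 249, 449 and 388 CPM in PSCI and 262, 210 and 212 CPM in control. Its PSCI and control libraries overlapped, and its differences of 0.67 and -0.66 had edgeR adjusted p of 0.063 and 0.0887.

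The calls of Mgst1, Prdx4, Maff and Sqstm1 in both comparisons, and of Ugt1a6 in PSCI against control, held under all 19 alternatives. Those of Nfe2l2 and Gstm7 in PSCI were each lost under 6, including leaving out any 1 control library or PSCI replicate 3 (and, for Gstm7, PSCI replicate 2), with adjusted p up to 0.0922 and 0.0981. The Slc3a2 rise was lost under 5 (control replicate 2 or 3 among the libraries), and its fall under 6 (any taVNS library). The fall of Ugt1a6 was lost under 3 (taVNS replicate 1 or 2 among the libraries). Prdx1 (14 and 15), Taldo1 (9 and 14), Mgst3 (13) and Txnrd3 (12) were also lost, in each case including the omission of at least 1 single library from each of the 3 groups. Without both PSCI replicate 2 and taVNS replicate 3, the edgeR adjusted p in PSCI against control was 0.0557 for Nfe2l2, 0.0562 for Gstm7, 0.0626 for Slc3a2, 0.0805 for Mgst3, 0.0844 for Taldo1 and 0.0905 for Prdx1. In taVNS against PSCI it was then 0.0587 for Ugt1a6, 0.0643 for Txnrd3, 0.0749 for Slc3a2, 0.119 for Prdx1 and 0.215 for Taldo1.

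**Figure D3:**
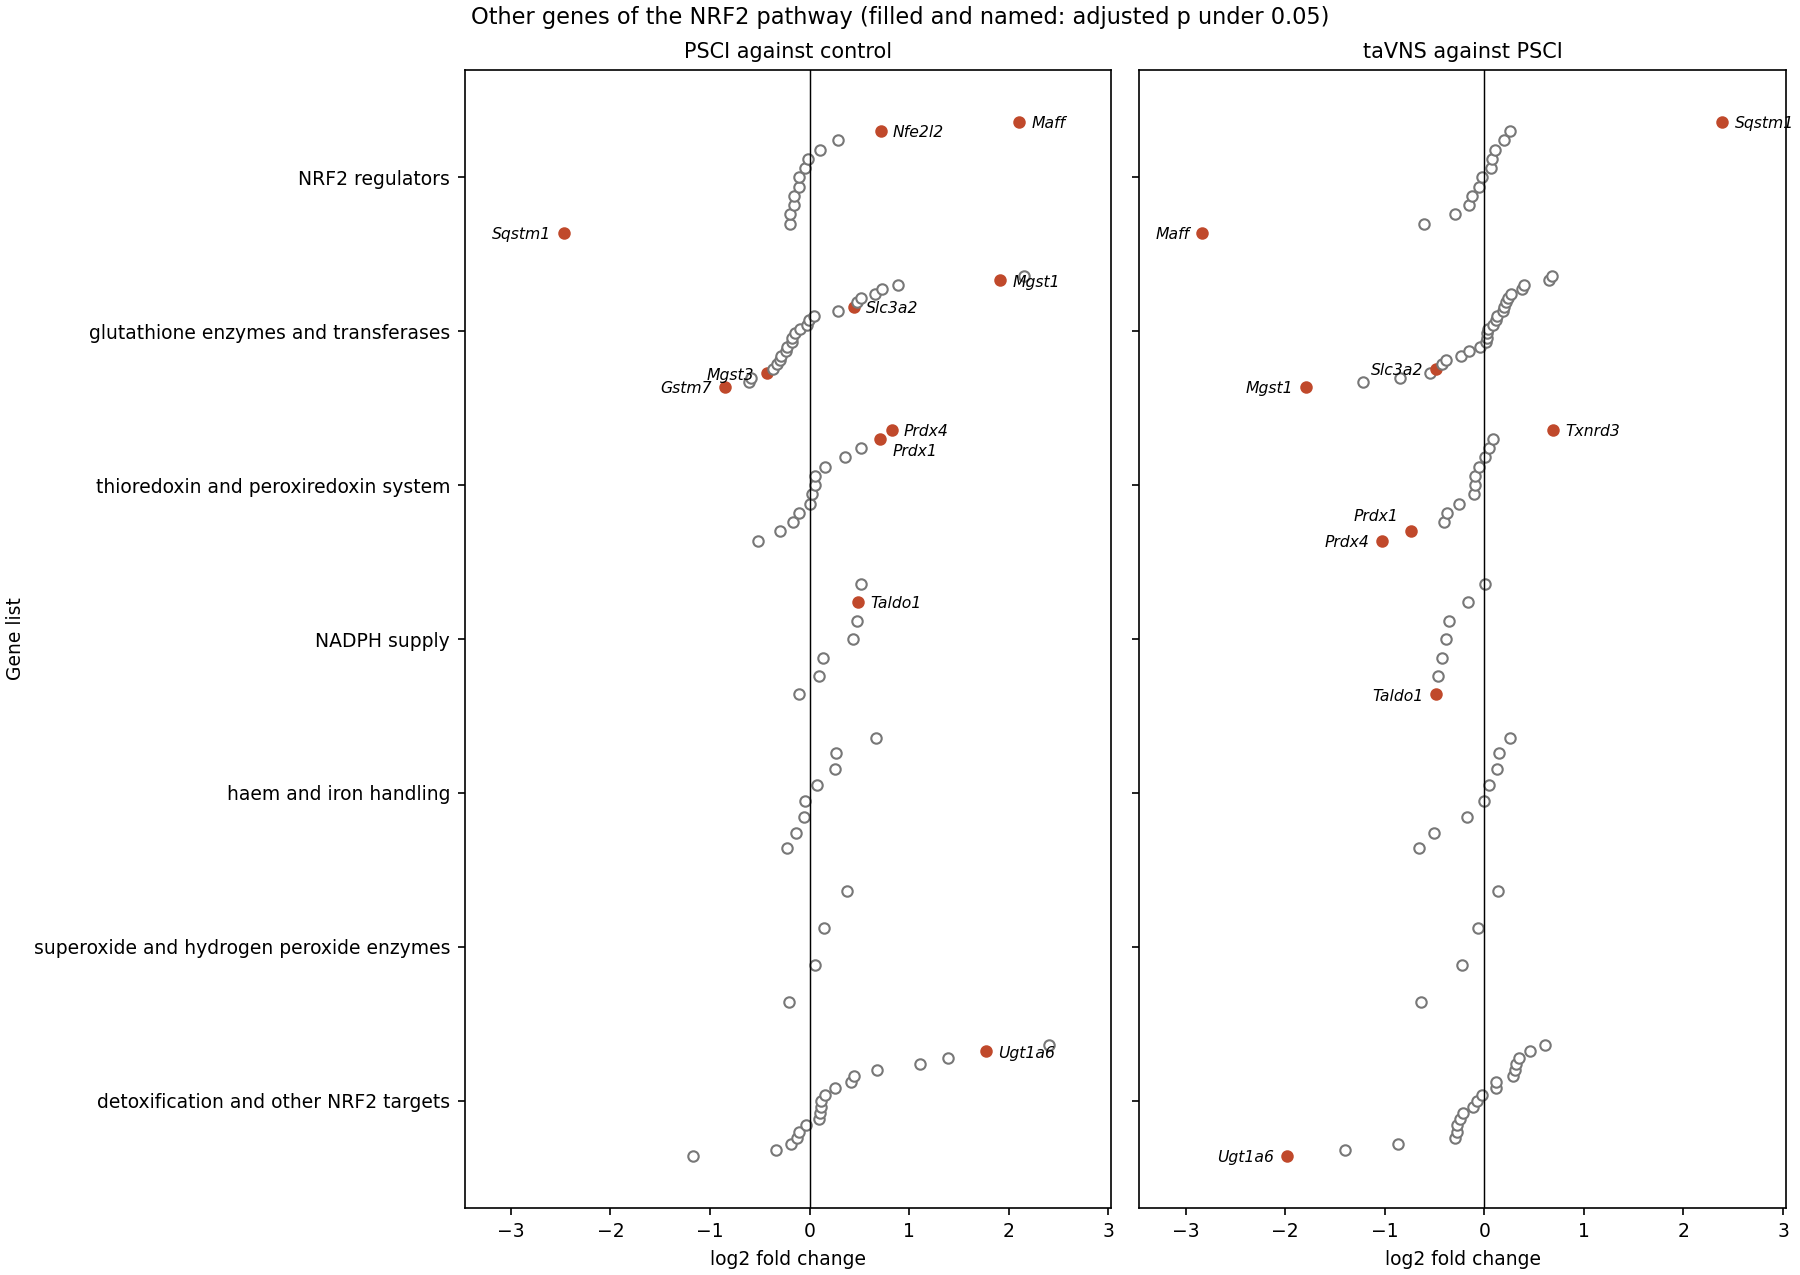
Log2 fold change (horizontal axis) of the tested genes in the 7 other NRF2 pathway lists, with 1 gene not shown, in PSCI against control and taVNS against PSCI. Filled, named points passed the adjusted threshold in edgeR. Maff and Mgst1 lie farthest to the right among them in PSCI against control, at 2.11 and 1.91, and Maff and Ugt1a6 farthest to the left in taVNS against PSCI, at -2.83 and -1.99.

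Some markers of microglia, macrophages and astrocytes moved with the 3 changed members. Summed microglial markers (11 genes) ran from 288 to 360 CPM in taVNS, from 482 to 773 CPM in PSCI and from 194 to 266 CPM in control. By edgeR 8 of the 11 passed as higher in PSCI against control and 0 as lower. There 8 were higher without overlap and 1 lower, beside 16.2% and 11.3% of all genes. In taVNS against control 0 passed, and 6 were higher without overlap and 0 lower, beside 5.74% and 5.4% of all genes. In taVNS against PSCI 5 of the 11 fell and 1, Tmem119, rose. Markers of monocytes and border macrophages (7 genes, 5 tested) summed to 32.7 to 73.6 CPM in taVNS, 64.3 to 303 CPM in PSCI and 29.0 to 39.0 CPM in control, with 2 risen in PSCI and 1 fallen in taVNS against PSCI. Astrocyte markers (8 genes) summed to 3757 to 4770 CPM in taVNS, 7688 to 10731 CPM in PSCI and 3352 to 4745 CPM in control. Of these, Gfap and Aqp4 rose in PSCI and fell in taVNS against PSCI, and the other 6 passed in neither comparison. The median of the 8 was 0.28 in PSCI against control and -0.31 in taVNS against PSCI (log2). In PSCI against control 3 of the 8 were higher without overlap and 1 lower, beside 16.2% and 11.3% of all genes. Within PSCI, replicate 2 was highest and replicate 1 lowest in all 3 sums, as they were for Hmox1 and Gpx1, whereas Nqo1 was highest in replicate 1. Within control, replicate 1 was highest and replicate 3 lowest in Hmox1, Nqo1, Gpx1 and the microglial and astrocyte sums, while the macrophage sum was lowest in replicate 2. Within taVNS the orders differed: replicate 3 was highest in Hmox1, Nqo1 and the microglial and macrophage sums, and replicate 2 was highest in Gpx1 and the astrocyte sum. Hmox1 and the macrophage sum were lowest there in replicate 2, Nqo1, Gpx1 and the microglial sum in replicate 1, and the astrocyte sum in replicate 3.

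None of the 8 neuronal, 5 oligodendrocyte, 6 endothelial, 7 meningeal and 3 tested choroid plexus markers passed in PSCI against control or in taVNS against PSCI by edgeR. Neuronal markers summed to 7712 to 10318 CPM in taVNS, 4919 to 9035 CPM in PSCI and 8597 to 9640 CPM in control, with PSCI replicate 2 the lowest. Oligodendrocyte markers ranged over 8162 to 12872 CPM in taVNS, 4402 to 12652 CPM in PSCI and 8952 to 15624 CPM in control, endothelial ones over 157 to 190, 173 to 183 and 85.6 to 178 CPM, and choroid plexus ones over 4.97 to 6.59, 4.23 to 10.8 and 1.03 to 11.0 CPM, in the same group order. T cell markers (4 genes, 3 tested) summed to 5.88 to 16.6 CPM in taVNS, 11.8 to 22.1 CPM in PSCI and 3.33 to 9.18 CPM in control. Every PSCI sum thus lay above every control sum. By edgeR 1 of the 3 rose in PSCI against control, and 0 passed in taVNS against PSCI. Their median log2 fold changes in these comparisons were 3.29 and -3.21. Red blood cell markers summed to 185 to 434 CPM in taVNS, 38.1 to 110 CPM in PSCI and 119 to 132 CPM in control. In PSCI against control 0 of the 6 passed by edgeR, and 3 of the 6 rose in taVNS against PSCI. No marker was at 0 in all libraries, and the part of any of these cell types in the members' changes was not tested.

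**Figure D4:**
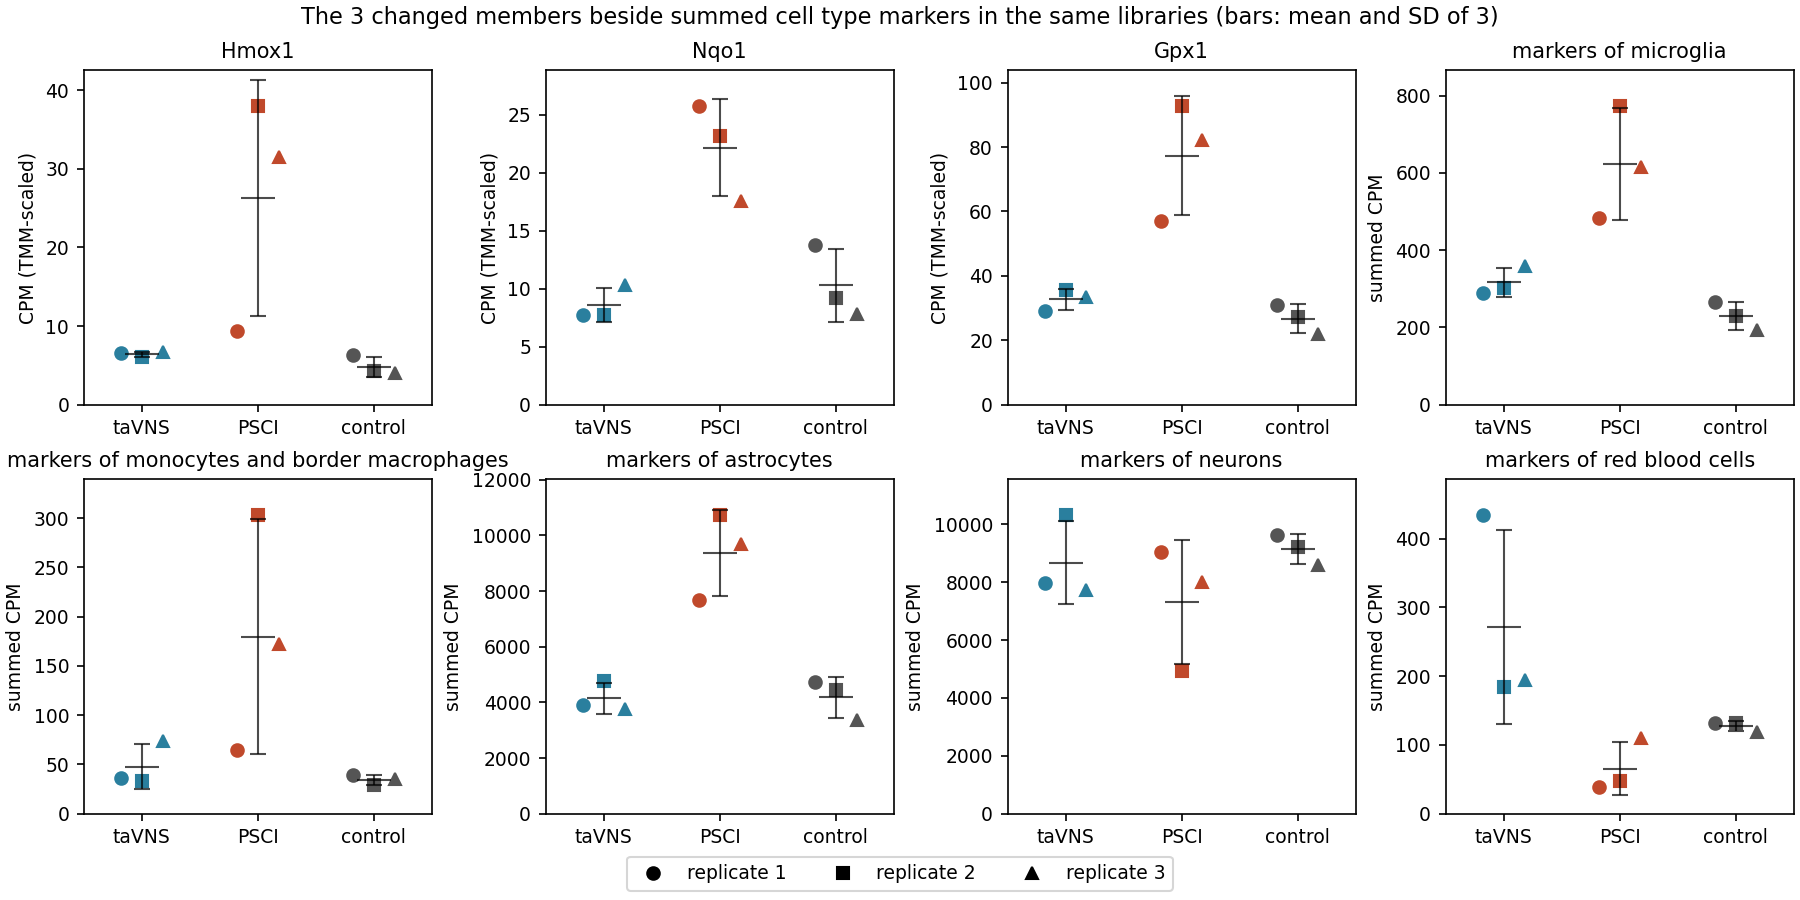
Levels of Hmox1, Nqo1 and Gpx1 (CPM) beside summed markers of 5 cell types (summed CPM) in the taVNS, PSCI and control libraries. Each marker shape is 1 replicate, bars are the mean and SD of 3 libraries, and vertical axes start at 0. The microglial and astrocyte sums are highest in the 3 PSCI libraries, as are the members, while the red blood cell sum is lowest there.

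The genes whose profiles over the 9 libraries lay nearest to each member were found by the root-mean-square (RMS) difference of log2 CPM. Each profile was centred on its own mean. The search covered 13473 genes with a mean of at least 1 CPM, without unnamed loci (symbols that begin with LOC, RGD or AABR). For Hmox1, whose own RMS variation was 1.10, they were Gsap (0.201), Trim47 (0.219), Hmmr (0.221), Prrg4 (0.228) and Hcls1 (0.247). For Nqo1, with an RMS variation of 0.645, they were Ston1 (0.202), Ctse (0.213), Ttc21a (0.228), Sh3d21 (0.238) and Plekha4 (0.238). For Gpx1, with an RMS variation of 0.690, the nearest gene was Slc37a2 (0.103). The nearest genes of the remaining members were Cnnm4 for Gclm, Ythdf2 for Gclc, Skiv2l for Txnrd1, Pex11g for Srxn1, Nfix for Slc7a11, Ttll1 for Sod2 and Cyb5a for Prdx6. None of these genes is itself a member, so no member was the nearest profile of another.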

How the data were processed

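Poly(A)-selected RNA of 9 hippocampus libraries was sequenced as dUTP-marked cDNA, per the labels' protocols. The authors deposited, per library, expected counts (estimated counts of reads per gene, not scaled) and RPKM with 2 decimals. HISAT2 2.0.4, RSEM 1.2.8 and the build mRatBN7.2 are named in the submitters' processing notes, and the role of each tool, the annotation and any filter are not given in the sources used here. The expected counts were rounded to whole numbers (91.2% to 91.8% of genes were whole already). Genes were kept by filterByExpr of edgeR 4.0.16 (14840 of 18733), scaled by TMM (factors 0.970 to 1.053) and tested by the quasi-likelihood F test in 1 fit with group as the factor and every library included (6 residual degrees of freedom). The script was tested on simulated data. Standard errors are the log2 fold change over the square root of F, and 95% intervals use the moderated degrees of freedom. Alternatives used DESeq2 1.42.0, limma 3.58.1 (voom, and log2(RPKM + 0.1) or + 1) and R 4.3.3.

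The members and gene lists were chosen with earlier results of these data known. Beside the 10 members, the genes named are those of the 7 pathway lists that passed, the nearest profiles by the rule in the text, and markers whose level moves with a result. The values of 1 pathway gene that passed are not reported here. Nfe2l2, Keap1, Bach1 and Ftl1 are named by role where they did not pass. Replicate libraries of a group differed by more than sampling noise, so each counts once. Coordinates are those of RefSeq's GRCr8, not of the authors' build.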

Additional observations from a re-analysis of the deposited data

How the results depend on the processing

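Over 19 alternatives, the 6 calls of Hmox1, Nqo1 and Gpx1 kept their direction in 114 of 114 values and passed the threshold in 93. Where a member had not passed, including Hmox1, Nqo1 and Gpx1 in taVNS against control, none came to pass in 456 values, of which 48 changed sign, none of these larger than 0.326 (log2). The members called numbered 1 to 3 in PSCI against control and 0 to 3 in taVNS against PSCI when libraries were left out, the 0 being without taVNS replicate 1. Other pathway genes called then numbered 5 to 20 and 4 to 18, and all genes called 548 to 2256, 172 to 1707 and, in taVNS against control, 0 to 1. With the DESeq2 test 19 other pathway genes and 2294 genes were called in PSCI against control, 1557 genes in taVNS against PSCI and 10 in taVNS against control. With only the 6 libraries compared the counts were 6 and 806 in PSCI against control and 5 and 250 in taVNS against PSCI. There limma-voom called 480 genes, and RPKM without a filter 6 other pathway genes and, in taVNS against control, 1 gene.

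Same-numbered libraries showed no common deviation (correlations from -0.468 to 0.255), which does not settle whether they are paired. The labels do not say what the replicate number means. With the replicate block 518 genes and 6 other pathway genes were called in taVNS against PSCI, and Gclm became -0.0041 in PSCI against control and 0.0064 in taVNS against PSCI. Gclm in taVNS against PSCI was also 0.017 with DESeq2 size factors, 0.00055 without a filter, 0.019 with DESeq2, 0.017 with limma-voom and 0.0044 with only the 6 libraries. Txnrd1 in taVNS against control was 0.0047 with DESeq2 size factors, 0.0036 with DESeq2 and 0.024, 0.023 and 0.024 with the 3 RPKM fits. Leaving out libraries gave ranges that cross 0 for members in comparisons where they had not passed. In PSCI against control they were -0.25 to 0.16 for Gclm, -0.026 to 0.20 for Prdx6, -0.032 to 0.17 for Slc7a11 and -0.31 to 0.14 for Srxn1. In taVNS against PSCI they were -0.13 to 0.33 for Gclm, -0.15 to 0.057 for Slc7a11 and -0.38 to 0.092 for Srxn1. In taVNS against control they were -0.081 to 0.0041 for Gclc, -0.086 to 0.15 for Gclm, -0.42 to 0.0096 for Nqo1, -0.066 to 0.054 for Prdx6, -0.065 to 0.12 for Slc7a11 and -0.058 to 0.063 for Txnrd1. The cause was not tested. With 3 libraries a group, small differences of a member cannot be resolved.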
